A study of Rattus norvegicus with 24 samples.

Results

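The ion channels that set the tone of an artery were followed by array in mesenteric arteries of ovariectomised rats given estradiol benzoate, testosterone or vehicle. The set holds every probe with a single gene symbol that begins with Kcn (potassium channels), Cacn (voltage-gated calcium channels), Clcn (chloride channels and exchangers), Ryr or Itpr (calcium release channels), Scn (sodium channels) or Trpa, Trpc, Trpm or Trpv (transient receptor potential channels). This rule took 102 probes of 85 genes, out of 10399 probes on the array. Of these, 100 probes of 83 genes were measured in 3 or more rats per group and were tested among 10228 probes, and the remaining ones, Kcnj12 and Scn7a, are described apart. One member, Trpc4ap, encodes a protein that associates with a TRP channel and was put in no channel class.

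Small arteries hold a partly contracted state, and the membrane potential of their smooth muscle sets how far they contract. Calcium that enters through voltage-gated calcium channels, or leaves the sarcoplasmic reticulum through ryanodine and IP3 receptors, drives contraction, while potassium channels that open let potassium out, hyperpolarise the cell and close the calcium channels. Endothelial potassium channels pass hyperpolarisation on to the muscle, and the nerves in the vessel wall carry channels of their own. Estrogens and androgens are both known to widen arteries, in part within minutes and without new transcription.

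All 12 rats were female Sprague Dawley rats, ovariectomised at 3 weeks of age, allowed 2 weeks of recovery and used at 5.5 weeks. They were injected intraperitoneally each day for 4 days with sesame oil vehicle, with estradiol benzoate at 0.15 mg per kg per day, or with testosterone at 1 mg per kg per day, 4 rats in each group. No group kept its ovaries, so every comparison is one hormone against ovariectomised controls or one hormone against the other. The cRNA of each rat was hybridised to 2 CodeLink one-colour arrays, and the log2 intensities of both arrays were averaged to 1 value per rat, so the rat is the replicate and each rat is named by its group and label number.

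The arrays agreed closely over all probes, with r between 0.976 and 0.993 for the 2 arrays of a rat and array medians between 0.926 and 0.951 on the linear scale. Genes of other tissues differed widely between rats: the summed linear intensity of 8 measured of 15 listed pancreatic acinar genes ran from 0.472 to 1.16 in vehicle and from 0.431 to 2.22 with testosterone but from 0.505 to 100.6 with estradiol benzoate. That of 9 of 16 hepatocyte genes ran from 1.596 to 31.3 in vehicle, against 1.42 to 1.70 and 1.13 to 1.52 with the hormones. Over these lists, estradiol benzoate animal 3 had the highest mean log2 deviation in the pancreatic genes (6.32), followed by animal 8 of that group (2.07) and testosterone animal 6 (0.94). For the liver genes vehicle animals 5, 3 and 4 were highest (2.91, 1.20 and 0.70). Of the smooth muscle markers, 3 of 14 were measured, among them Cnn1, a defining one (mean log2 intensity 5.25 in vehicle, and 0.25 and 0.16 lower with estradiol benzoate and testosterone, SE 0.15 for each), and Acta2 and Myh11 were not measured by a probe with 1 symbol. The summed intensity of these 3 ran from 36.3 to 53.5 in vehicle, 32.5 to 44.6 with estradiol benzoate and 34.8 to 45.4 with testosterone. Of the endothelial markers 7 of 11 were measured, including Pecam1 (mean log2 intensity 4.94 in vehicle, 4.79 with estradiol benzoate and 4.90 with testosterone). In whole arteries, fewer cells of a type and less RNA per cell cannot be told apart.

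Most channel probes were dim. By their mean over the groups, 83 of the 100 lay below the median of all probes and 54 in the dimmest 25%, and 53 of the 102 had a value on all 24 arrays. The median standard deviation (SD) of 1 array between duplicates was 0.162 for the channel probes against 0.119 for all probes on the log2 scale, and that between rats of a group was 0.240 against 0.195. Among the dimmest 25% of all probes the median duplicate SD was 0.295. As a set, the dim members were therefore measured less precisely.

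**Figure D1:**
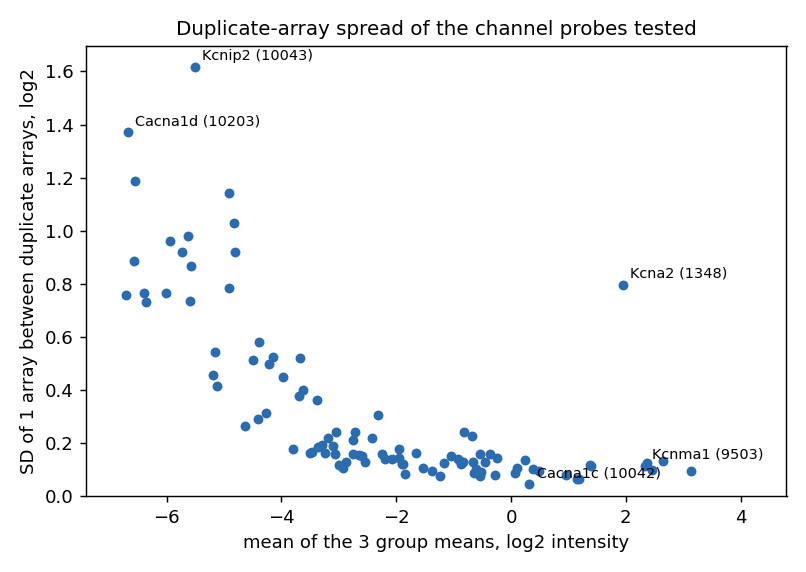
Each point is 1 of the 100 channel probes tested, with its mean log2 intensity over the 3 groups on the x axis and the SD of 1 array between duplicates on the y axis (log2). The spread is larger among dim probes, up to 1.62 for a Kcnip2 probe, and the bright Kcna2 probe (SD 0.79) stands apart from other probes of its brightness.

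Does either hormone alter the channel genes of the artery? No channel probe passed the limma threshold of a Benjamini-Hochberg adjusted p under 0.05 in any comparison. With estradiol benzoate against vehicle the smallest adjusted p of a member was 0.186, with testosterone against vehicle 0.148, and between the hormones 0.337 (limma). Over all 10228 probes the share called at an adjusted p under 0.05 was 0%, 0.0489% and 0.0293% in these comparisons. The moderated F test of any difference among the groups called 0 members, the smallest adjusted p being 0.174 (limma), against 0.00978% of all probes.

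At an unadjusted p under 0.05 the channel probes were counted about as often as other probes. With estradiol benzoate 9 of 100 members were counted, 4 higher and 5 lower, where 13.5% of all probes were counted, 6.77% higher and 6.69% lower. With testosterone 17 of 100 were counted, 13 higher and 4 lower, where all probes gave 14%, 6.62% higher and 7.43% lower. Between the hormones 4 were counted, 2 in each direction, where all probes gave 4.13%, 2.41% higher and 1.71% lower with estradiol benzoate. The F test counted 10 members against 11.9% of all probes. With testosterone the members counted lay mostly on the higher side, whereas the probes of the whole array did not lean that way. The lean of the array differed with brightness, however. In its dimmest 25%, 263 probes were counted higher and 220 lower with testosterone, and in the next 25% 269 and 132. In the one after the counts were 99 and 154, and in the brightest 25% 46 and 254. Whether the members counted leaned more than other probes of their brightness was not tested.

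In 12 members the 4 estradiol benzoate values did not overlap the vehicle values (7 above and 5 below), where 7.82% of all probes showed this. For testosterone against vehicle the count was 6 (5 above and 1 below) against 5.59% of all probes, and between the hormones it was 2 against 3.05%. For a single probe with 4 rats against 4, an exact two-sided permutation test cannot give a p below 0.0286. The direction of the small differences was uneven: 59 members were higher and 41 lower with estradiol benzoate, and 64 higher and 36 lower with testosterone. For estradiol benzoate minus testosterone 33 were higher and 67 lower. Of all 10228 probes, 4870, 4875 and 4964 were higher in these 3 comparisons. The median difference was 0.08 with estradiol benzoate, against -0.01 over all probes, and 0.12 with testosterone, against -0.01. Between the hormones it was -0.0436, against -0.0045.

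The lean of the members toward higher values differed with brightness. In the dimmest 25% of the array the median difference for testosterone was 0.18 over 54 members and 0.03 over all 2557 probes, in the next 25% 0.12 over 29 members and 0.06 over all, in the one after 0.07 over 11 members and -0.02 over all, and in the brightest 25% -0.15 over 6 members and -0.07 over all. Members and other probes both ran from positive medians among dim probes to negative medians among bright ones. Of the 17 members at an unadjusted p under 0.05 with testosterone, 14 lay in the dimmest 25%, which is 25.9% of its 54 members against 18.9% of all its probes. The lean with testosterone also depended on 1 rat. Over the 83 genes, testosterone animal 2 had a median deviation of 0.21 from the mean of all rats, while the other 11 ranged from -0.08 to 0.08. Without that rat, 10 members were counted for testosterone against vehicle (6 higher and 4 lower) and the median difference was 0.04. Without vehicle animal 5 and estradiol benzoate animal 3, the rats highest in the liver and pancreas genes, the counts were 7 for estradiol benzoate, 18 for testosterone and 3 between the hormones. All probes were not counted in these fits with rats left out, so whether the whole array moved alike is not known.

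**Figure D2:**
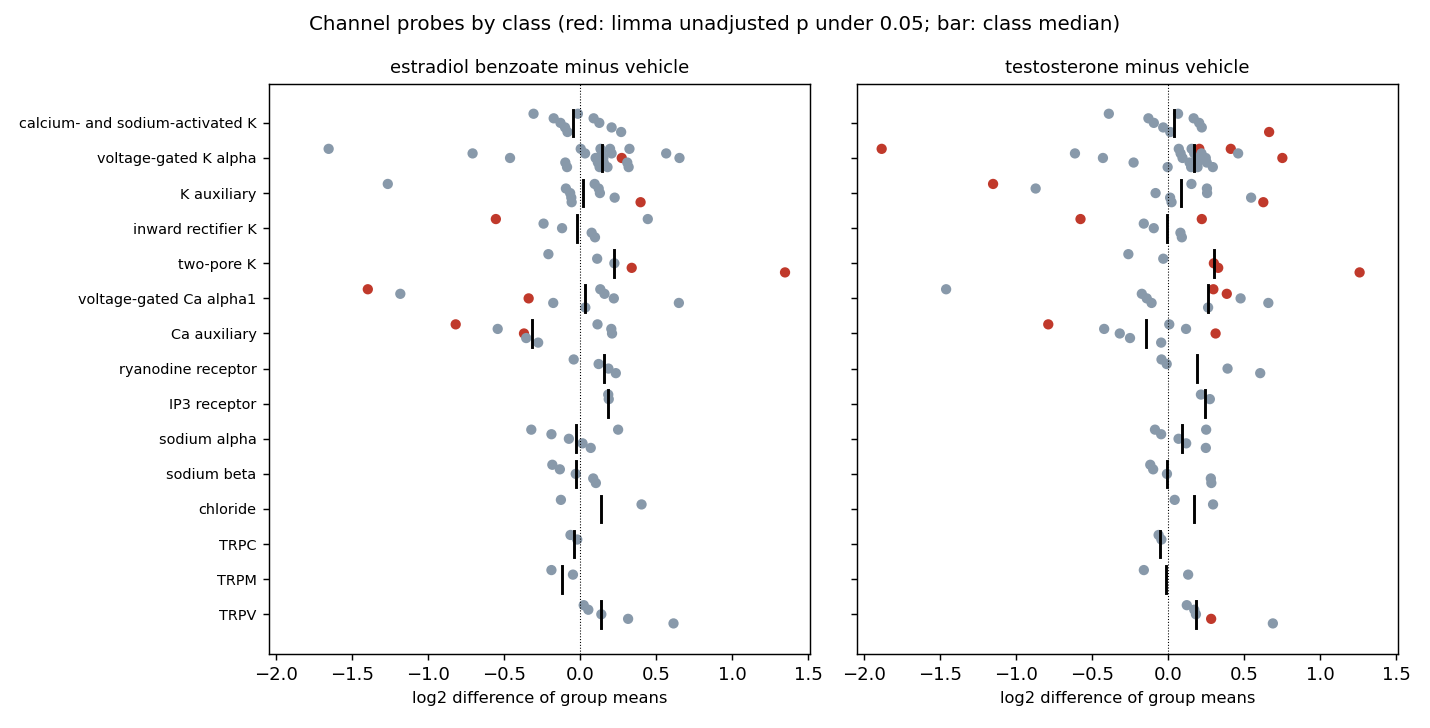
Log2 differences from vehicle (x axis) of the channel probes tested, by class (y axis), for estradiol benzoate on the left and testosterone on the right, 4 rats a group. Red points had a limma unadjusted p under 0.05, none had an adjusted p under 0.05, and bars mark class medians, which lie below 0 for calcium channel auxiliary subunits and above 0 for voltage-gated and tandem-pore potassium channels in both panels.

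Among the pore-forming subunits of voltage-gated calcium channels, 9 probes of 9 genes were tested. Cacna1c, the pore of the L-type channel that carries most calcium entry in arterial muscle, had log2 intensities of -0.12, 0.43, 0.15 and 0.14 in vehicle animals 3, 4, 5 and 8, of 0.49, 0.13, 0.38 and 0.13 in estradiol benzoate animals 2, 3, 5 and 8, and of 0.89, 0.53, 0.54 and 0.17 in testosterone animals 2, 4, 6 and 8. Of the testosterone rats, 3 were above every vehicle rat and animal 8 was within the vehicle range. Its mean was 1.31-fold higher with testosterone than with vehicle (log2 difference 0.39, SE 0.16, n = 4 each, adjusted p = 0.324, limma) and 1.10-fold higher with estradiol benzoate (0.13, SE 0.16, adjusted p = 0.731, limma). This probe had the closest duplicates in the set, with an SD of 0.04.

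The T-type pores Cacna1g and Cacna1h, which open near the resting potential, showed no difference beyond their error. Cacna1g was 0.22 (SE 0.16) above vehicle with estradiol benzoate and 0.26 (SE 0.16) with testosterone. Cacna1h was -0.18 (SE 0.20) and -0.14 (SE 0.20) in the same order, with adjusted p values of 0.712 and 0.778 (limma). A further T-type pore, Cacna1i, best known from neurons, had vehicle values of -3.20, -3.21 and -3.19 in 3 rats, animal 5 being missing from the fit, and every testosterone value, from -3.08 to -2.66, was above them (difference 0.30, SE 0.12, adjusted p = 0.318, limma). Cacna1e, a neuronal pore, was lower by 0.34 (SE 0.12) with estradiol benzoate at an adjusted p of 0.304 (limma).

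Cacna1d, an L-type pore known from neurons, endocrine cells and the sinus node, differed most of these pores with estradiol benzoate but lay near the floor of the array. Its log2 values were -6.42, -6.06, -6.40 and -5.81 in vehicle, -6.91, -8.42, -7.98 and -6.96 with estradiol benzoate and -5.22, -6.43, -6.64 and -6.82 with testosterone. All 4 estradiol benzoate rats were below every other rat. The difference from vehicle was -1.40 (SE 0.40, adjusted p = 0.206, limma) and from testosterone -1.29 (SE 0.40, adjusted p = 0.729, limma). Behind it stood an SD between duplicates of 1.37, and the 2 arrays of estradiol benzoate animal 5 read 7e-04 and 0.0225 on the linear scale. With a pseudocount or other settings the difference from vehicle ranged from -2.19 to -0.02.

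Cacna1b, the N-type pore of nerve terminals, shows how far 1 spot can carry a mean. Vehicle animal 5 stood at -0.56 while the other 11 rats lay between -5.31 and -4.04. That value came from a single array (0.678 on the linear scale), the duplicate spot being blank. The difference of testosterone from vehicle, -1.46, had an SE of 0.73 (adjusted p = 0.390, limma), and without that rat it was -0.48.

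The auxiliary subunits of calcium channels, which steer pores to the membrane and tune their opening, had 5 of 8 probes lower with each hormone, where 5358 (estradiol benzoate) and 5353 (testosterone) of the 10228 probes tested were lower. The class medians were -0.32 and -0.15. Under median centring and under quantile normalization 3 of 8 were higher for estradiol benzoate and 2 of 8 for testosterone. Without the dimmest 25% of the array 4 members were left, 2 higher and 2 lower with estradiol benzoate (median -0.08) and 1 higher and 3 lower with testosterone (median -0.18). None passed the adjusted threshold.

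Cacnb4, a beta subunit best known from the brain, had the smallest p of this class. Its log2 intensities were -2.14, -2.23, -2.70 and -1.79 in vehicle, -2.92, -3.06, -3.31 and -2.85 with estradiol benzoate and -2.52, -3.12, -3.12 and -3.26 with testosterone. Every estradiol benzoate rat was below every vehicle rat, and 3 of 4 testosterone rats were, the exception being animal 2. Vehicle stood 1.76-fold above estradiol benzoate (log2 difference -0.82, SE 0.20, 95% interval -1.27 to -0.37, adjusted p = 0.186, limma) and 1.73-fold above testosterone (-0.79, SE 0.20, adjusted p = 0.210, limma). Over the alternatives the adjusted p ranged from 0.0954 to 0.417 for estradiol benzoate and from 0.0696 to 0.396 for testosterone, both lowest without vehicle animal 5. The differences ran from -0.98 to -0.21 and from -0.98 to -0.20, smallest with a pseudocount of 0.5. The hormones themselves differed by -0.03 (95% interval -0.48 to 0.42).

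Since Cacnb4 is a neuronal subunit, the nerve markers were set beside it. Of 18 listed, 13 were measured and each had values above 0 in at least 3 rats of every group, with a summed linear intensity of 26.5 to 58.4 in vehicle, 45.7 to 69.0 with estradiol benzoate and 44.0 to 64.5 with testosterone. Of these 13, 7 were higher with estradiol benzoate and 9 with testosterone. Bright genes weigh most in such a sum, and the mean log2 deviation over the 13 ran otherwise. It was -0.03, -0.05, 0.21 and 0.12 in vehicle and -0.10, -0.18, -0.11 and -0.06 with estradiol benzoate, below every vehicle rat. With testosterone it was 0.23, 0.32, -0.15 and -0.16, on both sides of vehicle. Single markers ran both ways: Snap25, a vesicle fusion protein, was lower by 0.91 (SE 0.30) and 1.12 (SE 0.30), while Dbh, the noradrenaline enzyme, was higher by 0.28 (SE 0.10) and 0.22 (SE 0.10). The part of nerve tissue in the Cacnb4 difference was not tested.

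Cacnb3, a beta subunit of smooth muscle and other tissues, read -1.98, -2.14, -1.93 and -2.41 in vehicle and -2.53, -2.46, -2.50 and -2.44 with estradiol benzoate, so that the groups did not overlap. The difference was -0.37 (SE 0.14, adjusted p = 0.311, limma), and with testosterone it was -0.25 (SE 0.14). Cacnb2, the beta subunit most tied to cardiac and vascular L-type channels, was higher with estradiol benzoate than with testosterone by 0.25 (SE 0.11, adjusted p = 0.999, limma). Cacnb1, the beta subunit of skeletal muscle, differed by -0.36 (SE 0.18) with estradiol benzoate and 0.01 (SE 0.18) with testosterone. Cacna2d1, which traffics the L-type complex to the membrane, was lower with both hormones in both of its probes, by 0.28 and 0.54 with estradiol benzoate and 0.32 and 0.42 with testosterone, with adjusted p values of 0.380 to 0.484 (limma). Its dimmer probe read 2.11, 1.84, 0.86 and 1.97 in vehicle, and without animal 5 the differences of that probe were -0.82 and -0.70 (adjusted p = 0.113 and 0.133, limma). Cacng1, the gamma subunit of skeletal muscle, read -3.17, -3.03, -3.19 and -2.83 in vehicle and -2.67, -2.67, -2.86 and -2.77 with testosterone, a difference of 0.31 (SE 0.10, adjusted p = 0.246, limma). The groups overlapped, since testosterone animal 6 was below vehicle animal 8.

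Calcium release channels gave small differences. The IP3 receptors Itpr2 and Itpr3, which release stored calcium after vasoconstrictor signals, were higher with both hormones, by 0.18 (SE 0.13) and 0.19 (SE 0.10) with estradiol benzoate and 0.27 (SE 0.13) and 0.22 (SE 0.10) with testosterone. For Itpr3 the vehicle rats read -0.49, -0.63, -0.42 and -0.78 and the testosterone rats -0.23, -0.41, -0.44 and -0.38, so the ranges met within 0.02 (adjusted p = 0.358, limma). Ryr3, a ryanodine receptor found in arterial muscle beside other cells, was 0.39 (SE 0.19) above vehicle with testosterone (adjusted p = 0.373, limma), and vehicle animal 8, at -0.20, was within the testosterone range. The other vehicle rats read -1.06, -0.97 and -0.97, below the -0.81 to -0.41 of estradiol benzoate and the -0.67 to -0.19 of testosterone. Without vehicle animal 8 the differences were 0.38 and 0.59 (adjusted p = 0.244 and 0.112, limma). Ryr1 and Ryr2 lay between -7.97 and -4.92 in every rat, where duplicates had SDs of 0.77 to 0.92, and none was at an unadjusted p under 0.05.

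TRP channels, which pass calcium and sodium into muscle, endothelium and sensory nerve, were represented by Trpc1, Trpm4, Trpm7 and 4 Trpv genes. Trpc1, a store-operated channel subunit, differed from vehicle by -0.06 to -0.02 over both probes and both hormones. Trpm4, a depolarising cation channel of cerebral and other arteries, differed by -0.05 (95% interval -0.26 to 0.17) and 0.13 (-0.08 to 0.35). Trpm7, a magnesium and calcium channel fused to a kinase, differed by -0.19 (SE 0.16) and -0.16 (SE 0.16). All 5 Trpv probes were higher with both hormones, with medians of 0.14 and 0.18, although quantile normalization left 4 of 5 higher for estradiol benzoate and the AB arrays alone left 2 of 5 higher for testosterone. These 5 probes all lay in the dimmest 25% of the array, where 1302 (estradiol benzoate) and 1355 (testosterone) of 2557 probes were higher. Without vehicle animal 5, 3 of 5 were higher for estradiol benzoate. Only Trpv2, a stretch-sensitive channel, was at an unadjusted p under 0.05, with testosterone (0.28, SE 0.13, adjusted p = 0.355, limma). The heat and capsaicin receptor Trpv1 read -5.65 to -4.84 in vehicle and -4.76 to -4.53 with estradiol benzoate in its dimmer probe, without overlap, but with a duplicate SD of 1.03 and an adjusted p of 0.502 (limma). Its brighter probe read -4.29 to -3.12 in vehicle, a range that held all estradiol benzoate values (-3.80 to -3.34), with a difference of 0.32. The upper end was vehicle animal 8, whose arrays read 0.0653 and 0.2031 on the linear scale. The other vehicle rats read -4.29, -3.93 and -4.03, below every estradiol benzoate rat. Over the alternatives this difference ran from 0.03 to 0.56.

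The calcium-activated potassium channels that oppose contraction differed little. For Kcnma1, the pore of the large-conductance channel, the brightest of 3 probes read 2.25, 2.35, 2.02 and 2.37 in vehicle, 2.32, 2.16, 2.63 and 2.71 with estradiol benzoate and 2.41, 2.33, 2.35 and 2.16 with testosterone. The groups overlapped throughout, although 2 estradiol benzoate rats were the highest of all. Its difference was 0.21 for estradiol benzoate (95% interval -0.08 to 0.49, adjusted p = 0.483, limma) and 0.07 for testosterone (-0.22 to 0.35, adjusted p = 0.845, limma). The second probe gave 0.09 and 0.01, and the dimmest gave -0.31 and -0.39 with a duplicate SD of 0.46.

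Kcnmb1, the smooth muscle beta subunit that raises the calcium sensitivity of that channel, read 2.62, 2.74, 2.56 and 2.32 in vehicle, 2.33, 2.09, 2.70 and 2.43 with estradiol benzoate and 2.56, 2.67, 2.35 and 2.14 with testosterone in its brighter probe. No group stood apart. The differences were -0.17 (95% interval -0.51 to 0.16) and -0.13 (-0.46 to 0.20), and the second probe gave -0.13 and 0.17.

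**Figure D3:**
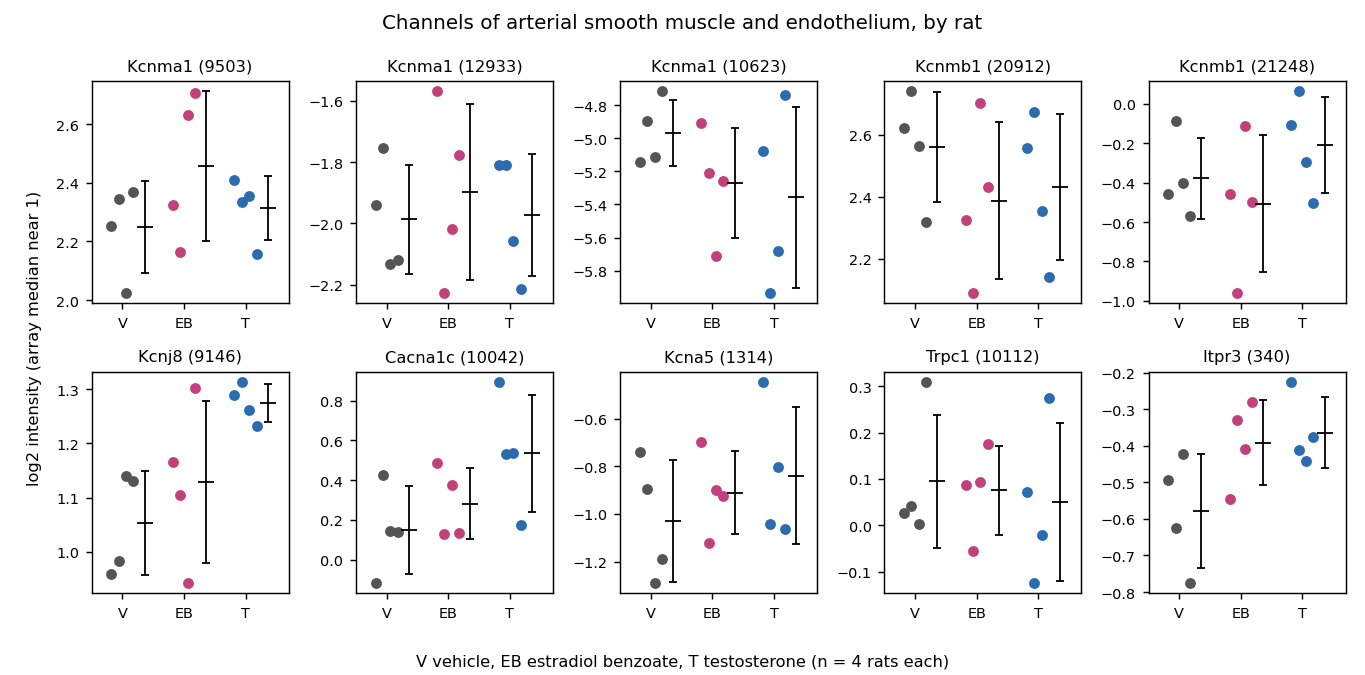
Log2 intensity per rat (y axis, scale differs between panels) of 10 probes for channels of arterial muscle and endothelium, with group mean and SD beside the 4 rats of each group (x axis). Among these 10, only Kcnj8 has testosterone rats (1.23 to 1.31) wholly above vehicle (0.96 to 1.14), and Kcnma1 and Kcnmb1 overlap in all groups.

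The small-conductance channel Kcnn3 and the intermediate-conductance channel Kcnn4 start endothelial hyperpolarisation. The dimmer Kcnn3 probe read -4.00, -3.68, -3.84 and -4.25 in vehicle, -3.32, -3.98, -3.70 and -3.68 with estradiol benzoate and -3.04, -3.32, -3.37 and -3.37 with testosterone. Every testosterone rat was above every vehicle rat, by a 1.59-fold difference of means (log2 0.66, SE 0.15, adjusted p = 0.160, limma). The brighter Kcnn3 probe did not show this: it read -1.49, -1.27, -1.86 and -1.37 in vehicle and -1.35, -1.42, -1.68 and -1.68 with testosterone, a difference of -0.03 (95% interval -0.33 to 0.27). The duplicates of the dimmer probe had an SD of 0.40 against 0.11 for the brighter. Kcnn4 differed by -0.01 (SE 0.15) and -0.09 (SE 0.15), and Kcnn1 by 0.13 (SE 0.10) and 0.20 (SE 0.10).

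Inward rectifiers hold the resting potential or couple it to metabolism. Kcnj8, the pore of the vascular ATP-sensitive channel, read 0.96, 0.98, 1.14 and 1.13 in vehicle, 1.17, 1.10, 0.94 and 1.30 with estradiol benzoate and 1.29, 1.31, 1.26 and 1.23 with testosterone. The testosterone rats were all above the vehicle rats and close to each other (SD 0.03). Their mean was 1.17-fold higher (log2 0.22, SE 0.09, 95% interval 0.03 to 0.42, adjusted p = 0.321, limma), with a range of 0.17 to 0.26 over the alternatives. Kcnj11, the pore of the same channel type in pancreas, heart and muscle, differed by -0.12 (SE 0.15) and -0.09 (SE 0.15). Kcnj13, an inward rectifier of epithelia, was 0.45 (SE 0.25) above vehicle with estradiol benzoate and 0.08 (SE 0.25) with testosterone.

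Kcnj14, a strong inward rectifier known from neurons, was lower with both hormones. It read -2.87, -3.08, -3.10 and -2.60 in vehicle, -3.46, -3.69, -3.31 and -3.42 with estradiol benzoate and -3.84, -3.43, -3.49 and -3.20 with testosterone. All 8 hormone-treated rats were below all 4 vehicle rats. Vehicle was 1.47-fold above estradiol benzoate (log2 difference -0.55, SE 0.15, 95% interval -0.89 to -0.22, adjusted p = 0.198, limma) and 1.49-fold above testosterone (-0.58, SE 0.15, 95% interval -0.91 to -0.25, adjusted p = 0.210, limma). The hormone groups differed from each other by 0.02 (95% interval -0.31 to 0.35). Over the alternatives the differences ran from -0.63 to -0.10 for estradiol benzoate and from -0.67 to -0.10 for testosterone, smallest with a pseudocount of 0.5. Both comparisons rest on the same vehicle rats.

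The related Kcnj12, a strong inward rectifier of heart and muscle, had values in only 2 estradiol benzoate rats and was left out of the fit over all groups. It read -3.36, -2.86, -3.23 and -3.36 in vehicle, -2.46, -2.71, -2.60 and -2.36 with testosterone, and -2.61 and -3.48 in estradiol benzoate animals 2 and 3. Testosterone and vehicle did not overlap (difference 0.67, SE 0.14, adjusted p = 0.316 in a limma fit of these groups alone).

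The promoter of Kcnj14, the member lower in all 8 hormone-treated rats, and that of Kcnab3, the member with the smallest p for testosterone, are given from RefSeq (GRCr8), from 250 bases before to 50 after the gene start on the coding strand. Kcnj14 lies on the minus strand at chr1:105437209-105437508 and Kcnab3 on the plus strand at chr10:54546388-54546687. Capitals mark a match to the half-site AGAACA of the androgen response element, on either strand.
Kcnj14: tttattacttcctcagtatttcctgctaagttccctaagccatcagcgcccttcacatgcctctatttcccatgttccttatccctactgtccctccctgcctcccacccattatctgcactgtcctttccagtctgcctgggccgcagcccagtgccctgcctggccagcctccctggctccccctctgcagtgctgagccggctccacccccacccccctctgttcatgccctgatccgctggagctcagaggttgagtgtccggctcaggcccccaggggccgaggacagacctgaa
Kcnab3: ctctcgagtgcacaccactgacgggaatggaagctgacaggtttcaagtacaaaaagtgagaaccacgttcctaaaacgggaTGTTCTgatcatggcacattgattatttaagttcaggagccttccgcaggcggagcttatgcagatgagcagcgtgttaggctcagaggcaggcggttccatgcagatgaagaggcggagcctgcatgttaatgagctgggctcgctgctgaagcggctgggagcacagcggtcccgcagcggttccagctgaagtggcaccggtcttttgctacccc
Kcnj14 holds none of the motifs searched, and Kcnab3 holds 1 half-site, as TGTTCT, which begins at position -168 from the gene start. That half-site is a short string found in 20.1% of all 27457 promoters and in 9 of the 59 channel promoters in the table (15.3%). The estrogen half-site AGGTCA occurred in 15.7% of all and 4 of 59 channel promoters (6.78%), namely Kcnc2, Kcnh1, Ryr2 and Trpv6. The full palindromes AGGTCANNNTGACCT and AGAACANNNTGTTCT, each of which contains the half-sites, occurred in 1 and 2 of all promoters and in 0 of the 59. The E-box CACGTG was in 6.65% of all and 6.78% of channel promoters, and the CArG box in 1.64% and in 0 of 59. All motifs were searched on both strands of these windows, and a match or its absence describes the letters only.

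Tandem-pore channels carry the background potassium current, and 5 were tested. Kcnk1, a weakly conducting member, read -5.42, -5.40, -6.70 and -5.16 in vehicle, -4.62, -3.32, -4.68 and -4.67 with estradiol benzoate and -4.39, -4.16, -5.03 and -4.06 with testosterone. All hormone-treated rats were above all vehicle rats. The means were 2.55-fold and 2.40-fold higher (log2 1.35 and 1.26, SE 0.39 for each, adjusted p = 0.215 and 0.243, limma), but the probe was dim, with a duplicate SD of 0.92, and a pseudocount of 0.5 brought the differences to 0.10 and 0.07. Vehicle animal 5 (-6.70) and estradiol benzoate animal 3 (-3.32) stood apart from their groups, and both widened the estradiol benzoate difference. Their duplicate arrays disagreed, at 0.0038 and 0.0243 and at 0.0419 and 0.238 on the linear scale.

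Kcnk9, an acid-sensitive member, read -3.06, -2.85, -2.93 and -2.95 in vehicle, -2.48, -2.63, -2.66 and -2.67 with estradiol benzoate and -2.52, -2.51, -2.90 and -2.55 with testosterone. The estradiol benzoate rats were all above vehicle, and testosterone animal 6 was the only hormone-treated rat within the vehicle range. The differences were 0.34 (SE 0.10, adjusted p = 0.234, limma) and 0.33 (SE 0.10, adjusted p = 0.243, limma), and 0.07 for each hormone with a pseudocount of 0.5. Kcnk2, the stretch-activated member, was higher by 0.23 (SE 0.14) and 0.30 (SE 0.14). Kcnk3 and Kcnk6, which are those most studied in vascular muscle, differed by 0.11 (SE 0.19) and -0.21 (SE 0.18) with estradiol benzoate and by -0.03 (SE 0.19) and -0.26 (SE 0.18) with testosterone. The class medians of 0.23 and 0.30 moved without dim members: without the dimmest 25% of the array, Kcnk3 and Kcnk6 alone were left, with medians of -0.05 and -0.15.

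Among voltage-gated potassium pores, which repolarise muscle and nerve, 18 of 23 probes were higher with each hormone, with medians of 0.14 and 0.17. Of the 10228 probes tested, 4870 (estradiol benzoate) and 4875 (testosterone) were higher. In the dimmest 25% of the array 1302 and 1355 of 2557 probes were higher, and in the next 25% 1512 and 1558 of 2557. Without the dimmest 25%, 9 of 11 pore probes were higher with each hormone. Whether the class leaned more than other probes of its brightness was not tested. Both normalizations tried left 18 of 23 higher, the AB arrays alone gave 15 and 12, and without vehicle animal 5 and estradiol benzoate animal 3 it was 14 and 16. At an unadjusted p under 0.05, 1 was counted with estradiol benzoate (4.35%, where all probes gave 13.5%), and 3 higher and 1 lower with testosterone (17.4%, where all probes gave 14%). Kcna5, a delayed rectifier of arterial muscle, read -0.74, -0.90, -1.29 and -1.19 in vehicle, -0.70, -1.12, -0.90 and -0.93 with estradiol benzoate and -0.45, -1.04, -0.80 and -1.07 with testosterone. Its differences, 0.12 (95% interval -0.24 to 0.48) and 0.19 (-0.17 to 0.55), were within the spread of the rats.

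Kcna2, a delayed rectifier of muscle and nerve, was bright but poorly measured. Its means were 2.25 ± 0.47 (SD, n = 4) in vehicle, 1.79 ± 0.73 with estradiol benzoate and 1.82 ± 0.32 with testosterone. The duplicate arrays of a rat disagreed, for instance 2.90 against 10.4 on the linear scale in vehicle animal 8, and the duplicate SD was 0.79. The differences of -0.46 and -0.43 each had an SE of 0.34.

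Kcnh3, a slow-gating channel of the forebrain, read -0.39, -0.42, -0.38 and -0.34 in vehicle and -0.18, 0.08, -0.16 and -0.17 with estradiol benzoate, without overlap (0.27, SE 0.09, adjusted p = 0.285, limma). Its second, dimmer probe gave 0.32 (SE 0.26), but vehicle animal 5 read -4.84, from 0.081 and 0.0151 on the linear scale. The other vehicle rats read -3.68, -3.62 and -3.60, within the estradiol benzoate range of -3.81 to -3.35. Over the alternatives the difference of that probe ran from -0.01 to 0.64. With testosterone the members at an unadjusted p under 0.05 were Kcnv1, a silent subunit (0.41, SE 0.16), Kcnd1, an A-type pore (0.75, SE 0.30), and Kcnq3, a neuronal M-current pore (0.20, SE 0.09), with adjusted p values of 0.306 to 0.355 (limma). Kcnd1 was dim: its duplicate arrays had an SD of 0.78, vehicle animal 8 gave 0.0515 and 0.0041 on the linear scale, and over 24 settings the testosterone difference ran from 0.03 to 1.07, with 12 at an unadjusted p under 0.05. Kcnc2, a fast delayed rectifier, was lower in 1 probe by 1.89 (SE 0.79) and higher in the other by 0.29 (SE 0.32). In the first, vehicle animal 5 read -1.95 from a single array while the other vehicle rats read -6.36, -5.46 and -5.28, and without that rat the difference was -0.95. Kcnh2, the rapid delayed rectifier of the heart, differed by -0.09 (95% interval -0.47 to 0.30) with estradiol benzoate and by less than 0.01 with testosterone. The probes of Kcnd3, an A-type pore, differed by 0.09 to 0.22.

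Kcnb2, a delayed rectifier, read -1.12, -0.55, -1.27 and -1.02 in vehicle and -0.51, -0.54, -0.73 and -0.89 with estradiol benzoate, a difference of 0.32 (SE 0.15, adjusted p = 0.376, limma), and it was 0.19 (SE 0.15) above vehicle with testosterone. The 2 highest estradiol benzoate rats were above every vehicle rat and the others were within the vehicle range. Kcna1 differed by 0.13 and 0.08 (SE 0.11 for each). Kcns1, a silent subunit that modifies other pores, differed by 0.14 and -0.23 (SE 0.18 for each), and estradiol benzoate stood 0.37 above testosterone (SE 0.18, adjusted p = 0.999, limma).

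Accessory subunits gave the members with the smallest p for testosterone. Kcne2, a small partner of Kcnq and Kcnh channels, read -3.46, -3.08, -3.46 and -3.06 in vehicle, -2.74, -2.83, -3.11 and -2.78 with estradiol benzoate and -2.43, -2.94, -2.61 and -2.58 with testosterone. All testosterone rats and 3 of 4 estradiol benzoate rats were above every vehicle rat. Its mean was 1.54-fold higher with testosterone (log2 0.63, SE 0.14, 95% interval 0.31 to 0.94, adjusted p = 0.151, limma) and 1.32-fold higher with estradiol benzoate (0.40, SE 0.14, adjusted p = 0.297, limma). The duplicates agreed, with an SD of 0.11, and over the alternatives the adjusted p for testosterone ran from 0.0940 to 0.420 and the difference from 0.13, with a pseudocount of 0.5, to 0.73.

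Kcnab3, a cytoplasmic beta subunit of voltage-gated channels, read -6.16, -6.13, -5.99 and -6.97 in vehicle, -6.20, -6.46, -6.70 and -6.11 with estradiol benzoate and -7.34, -7.62, -6.94 and -7.97 with testosterone. Testosterone was below every estradiol benzoate rat and overlapped vehicle only through animal 6 and vehicle animal 8. Vehicle was 2.22-fold above testosterone (log2 difference -1.15, SE 0.25, adjusted p = 0.148, limma), and estradiol benzoate was 2.14-fold above it (1.10, SE 0.25, adjusted p = 0.337, limma). The probe was among the dimmest of the array, with 0.64% of the probes tested at or below its mean, and its duplicate SD was 0.76. Without vehicle animal 8 the adjusted p for testosterone was 0.0528 (limma), the lowest of the members described under any alternative, and with a pseudocount of 0.5 the difference was -0.02. The beta subunit of arterial muscle, Kcnab1, was higher by 0.13 and 0.23 with estradiol benzoate and by 0.26 in both probes with testosterone, with SEs of 0.17 and 0.19. Kcnab2, a further beta subunit, differed by 0.12 and 0.01 (SE 0.26 for each). The calcium-binding partner of A-type channels Kcnip2 shows the limits of the dim probes: its dimmer probe was lower with estradiol benzoate without overlap (-1.27, SE 0.73) but had a duplicate SD of 1.62, and its other probe gave 0.10 (SE 0.20).

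**Figure D4:**
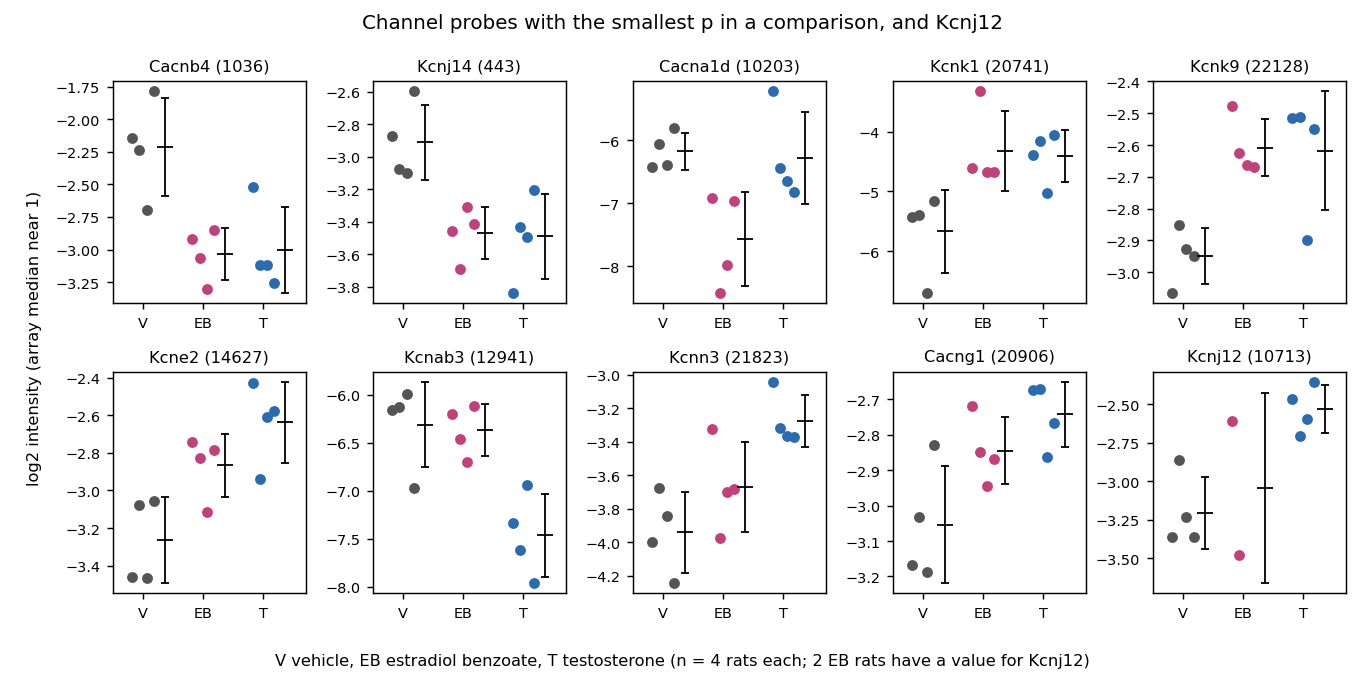
Log2 intensity per rat (y axis, scale differs between panels) for 9 tested probes and for Kcnj12, with group mean and SD beside the 4 rats of each group (x axis). Kcnj14 and Cacnb4 are lower and Kcnk1 higher with both hormones, Cacna1d is lower with estradiol benzoate and Kcnab3 with testosterone, and Kcnj12 has values from 2 estradiol benzoate rats.

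Sodium and chloride channels added little. Scn7a, a sodium-sensing relative of the sodium channels found in glia and Schwann cells, was bright but had blanks: it read 5.57, 5.38, 5.24 and 5.50 in vehicle, 4.99 and 5.02 in estradiol benzoate animals 2 and 5, and 5.20, 4.94 and 5.19 in testosterone animals 2, 4 and 6. Every vehicle value was above every hormone value measured (testosterone minus vehicle -0.31, SE 0.13, adjusted p = 0.478 in a limma fit of these groups alone). The other sodium channel pores, 6 probes, differed by -0.32 to 0.25 from vehicle, and the 5 beta subunit probes by -0.18 to 0.28, with 0 at an unadjusted p under 0.05 in either set. Scn4a, the pore of skeletal muscle, was 0.02 and 0.25 (SE 0.12 for each) above vehicle, and Scn1a, a neuronal pore, differed by -0.32 and -0.09 (SE 0.46 for each). Of the beta subunits, both probes of Scn2b were 0.28 above vehicle with testosterone (SE 0.14 and 0.19), and those of Scn3b differed by -0.10 and -0.01. Clcn7, a lysosomal chloride and proton exchanger, read -3.36, -3.23, -3.45 and -3.32 in vehicle and -2.69, -3.18, -3.11 and -2.78 with estradiol benzoate, without overlap (0.40, SE 0.19, adjusted p = 0.381, limma). Clcn1, the chloride channel of skeletal muscle, differed by -0.13 and 0.04.

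Where a gene had several probes, they did not always point the same way. Of 16 such genes with 33 probes, 6 had probes of opposite sign for estradiol benzoate against vehicle (Kcnc2, Kcnip2, Kcnma1, Kcnn3, Ryr1 and Scn11a) and 6 for testosterone against vehicle (Kcnc2, Kcnip2, Kcnip3, Kcnma1, Kcnmb1 and Kcnn3). Of these, only Kcnn3 and Kcnc2 had a probe at an unadjusted p under 0.05.

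Lists of other genes that act with the channels were set beside them. Of 26 genes of calcium handling 16 were measured, of 21 of the contractile pathway 13, of 25 of relaxation through cyclic nucleotides and nitric oxide 15, and of 45 other channels and transporters 23. None passed an adjusted p under 0.05 in any comparison (limma). At an unadjusted p under 0.05 the counts for estradiol benzoate were 2, 0, 2 and 3, and for testosterone 2, 0, 3 and 1. As shares of the genes measured these were 12.5%, 0%, 13.3% and 13% against 13.5% of all probes, and 12.5%, 0%, 20% and 4.35% against 14%. The genes that follow are given as values. Atp2b1, the calcium pump of the plasma membrane, was lower by 0.32 (SE 0.13) and 0.46 (SE 0.13), Pde3b, a cyclic nucleotide phosphodiesterase, was higher by 0.45 (SE 0.19) and 0.74 (SE 0.19), and Gucy1a1, a subunit of the nitric oxide receptor, was lower with estradiol benzoate by 0.36 (SE 0.13). Gja1, a gap junction protein, was higher with estradiol benzoate than with vehicle by 0.31 (SE 0.13) and than with testosterone by 0.44 (SE 0.13), with adjusted p values of 0.338 and 0.694 (limma).

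Markers of some other cell types differed between the groups as well. All 8 of 14 lymphocyte markers measured were higher with each hormone, with a summed linear intensity of 0.651 to 0.837 in vehicle, 0.855 to 1.44 with estradiol benzoate and 0.879 to 1.25 with testosterone, groups that did not overlap with vehicle. Of 9 measured among 14 white adipocyte markers, 7 were higher with each hormone, with sums of 103.8 to 114.5, 107.8 to 126.4 and 95.5 to 143.4, which overlapped. All 9 hepatocyte markers measured were lower with estradiol benzoate and 8 with testosterone. Each of these markers had values above 0 in at least 3 rats of every group. All 4 of 6 brown adipocyte markers measured were higher with each hormone, with sums of 3.72 to 4.50 in vehicle, 5.08 to 6.27 with estradiol benzoate and 4.00 to 5.49 with testosterone. Of 8 measured among 11 mast cell markers, 6 were lower with estradiol benzoate and 5 with testosterone, with sums of 9.33 to 11.2, 7.30 to 8.96 and 8.21 to 12.1. In both of these lists estradiol benzoate did not overlap with vehicle and testosterone did. Of 9 measured among 17 striated muscle markers, 4 were higher with estradiol benzoate and 3 with testosterone. Their sums, 7.14 to 10.8, 7.43 to 10.6 and 8.21 to 12.8, overlapped. Of 3 measured among 8 macrophage markers, 3 and 2 were higher, and the sums of 11.3 to 17.0, 13.2 to 16.5 and 11.15 to 15.4 overlapped. The part of these cells in the channel differences was not tested.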

How the data were processed

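Mesenteric artery RNA of 12 rats was measured on 24 CodeLink arrays. The deposited values are spot intensity on a linear scale, with array medians near 1. How the authors scaled them, corrected background and filtered spots is not stated in the sources used here. In all, 327 values lie at or below 0. These and blank spots (152 to 665 per array) were taken as missing. Log2 was computed here from the deposited intensity with no pseudocount and averaged over the 2 arrays of a rat.

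Each probe measured in 3 or more rats per group entered 1 linear model of the 3 groups (limma 3.58.1, R 4.3.3; 9 residual and 2.51 prior degrees of freedom). Tests were two-sided, with Benjamini-Hochberg adjustment over the 10228 probes. The fit was tested on simulated data.

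Gene symbols are those of the platform annotation: 7294 probes had 1 symbol, 88 several and 3017 none, and all 102 channel probes matched the gene reference by gene ID. For genes with several probes the one with the highest mean stood for the gene. Members, classes and lists were chosen with earlier results of these data known. Named were channels with a known role in arteries or nerves, the 6 probes with the smallest p in each direction of each comparison and in the F test, and genes with several probes. Cacna1i, Clcn1, Clcn7, Kcnj12, Kcnq3 and genes named only for a promoter match were chosen after their values were seen. Alternatives covered the scaling, pseudocount, missing values, dim probes, single arrays, the fit, the replicate number as a block, and single rats.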

Additional observations from a re-analysis of the deposited data

Results flagged for a closer look

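Within each group of 4 rats, the highest or lowest value was listed if the gap to its neighbour, as a share of the whole range, passed Dixon's 95% limit. This picked out 15 of the 294 groups of channel probes tested (5.1%), and chance alone gives about 1 in 20. All values are log2 intensities.

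Vehicle animal 5 stood apart in 4 of them: it was low for Cacnb2 (-0.95), Kcnk1 (-6.70) and the dimmer Kcnh3 probe (-4.84), and high for Cacna1b (-0.56), where its value came from 1 array. The other vehicle rats picked out were animal 3, high for the dimmer Kcnip3 probe (-5.54) and low for Kcnq3 (-3.08), animal 4, high for Kcnh7 (-1.11), and animal 8, high for Ryr3 (-0.20) and for the brighter Trpc1 probe (0.31).

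Estradiol benzoate animal 3 was high for Kcnk1 (-3.32) and for the brighter Kcnh3 probe (0.0764). With testosterone, animal 2 was high for Kcnj11 (-1.66) and the dimmer Kcnn3 probe (-3.04), animal 4 was high for Scn1a (-4.17), and animal 6 was low for Kcnk9 (-2.90).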

How the results depend on the processing

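No channel probe reached an adjusted p under 0.05 (limma) under any alternative run, and none of the members at an unadjusted p under 0.05 changed sign under an alternative fit. Counts at an unadjusted p under 0.05 moved more. They cover the members only: all probes were not counted under the alternatives, so whether the whole array moved alike is not known. For estradiol benzoate minus vehicle the 9 became 4 of 46 members without the dimmest 25% of probes and 15 with array weights, and ranged from 9 to 17 with single rats left out, the highest being without vehicle animal 4, and 14 when estradiol benzoate animal 3 was left out. For testosterone minus vehicle the 17 became 8 of the 53 members with a value on all 24 arrays, 6 without the dimmest 25% of probes and 7 with the replicate block, and ranged from 10 (without testosterone animal 2) to 18 with single rats left out. For estradiol benzoate minus testosterone the 4 became 2 with a pseudocount of 0.1 or 0.5, 2 with values on all arrays, 1 without the dimmest 25% of probes, 0 with the AA arrays and 7 with array weights, and ranged from 3 to 6 with single rats left out. The median difference for testosterone minus vehicle, 0.12, was 0.0248 with a pseudocount of 0.5 and 0.0346 with the replicate block. The reduced sets hold fewer members, and otherwise the cause was not tested. The other probe of Kcnn3 gave 0.66 and that of Kcnc2 gave -1.89, opposite in sign to the brighter probe. Leaving out vehicle animal 5 and estradiol benzoate animal 3 was chosen after seeing the data. Rats with the same label number in different groups had deviations that correlated between -0.12 and 0.30 over probes. The highest was between estradiol benzoate animal 2 and testosterone animal 2. Rats with different numbers correlated between -0.28 and 0.24. Few rats share a number, so these values cannot settle whether the numbers pair the rats. Dim signal limits the set: duplicate arrays of channel probes in the dimmest 25% had a median SD of 0.389.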
